A study of Mus musculus with 6 samples.

Results

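Regional patterning transcription factors were described across astroglial cells from dissected mouse striatum of neonates (P3, postnatal day 3) and young adults (3m, 3 months of age). The list held 37 of the 32285 genes in the count table and was given by name, from factors of the pallium to factors of the midbrain and the ventral neural tube. ACSA2, a surface antigen of astrocytes, was used to enrich cells with magnetic beads from dissected striatal tissue, without the subventricular zone, and their RNA was sequenced cell by cell from droplets. There were 3 libraries of P3 and 3 of 3m, all from wild type male C57BL/6 mice with no transgene or treatment. Each library came from a separate preparation that pooled the brains of several animals, so p-values measure the spread between preparations. Of 14373 cells that passed the study's filters, 9992 were astroglial (8874 at P3 and 1118 at 3m), and the study divided these into 17 sub-clusters.

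Patterning factors are transcription factors that give cells of the early neural tube their position along the head-to-tail and back-to-belly axes. In the forebrain, Emx and Pax6 factors mark the dorsal part (the pallium), whereas Dlx and Gsx factors mark the ventral part (the subpallium) from which the striatum forms. Iroquois, Engrailed and Hox factors mark progressively more posterior territory, and many glia keep expressing the factors of the territory in which they arose.

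The level of a factor is given as CPM, the gene's UMIs (unique molecular identifiers, the tags that mark each captured RNA molecule) per 1000000 UMIs of the same cells. A library with fewer than 10 cells of a population gave no value. Astroglial sums held 22327104 to 30617140 UMIs per library at P3 and 1157485 to 1843998 at 3m, so low factors were measured with less precision at 3m. Libraries contributed unequally to several sub-clusters. Of their cells, 95.5% came from P3 library 1 in sub-cluster 1, 97.8% and 96.1% from P3 library 3 in sub-clusters 4 and 12, 98.9% from 3m library 1 in sub-cluster 14 and 83.2% from 3m library 2 in sub-cluster 13. Sub-clusters 4, 12 and 16 were also shallow, with medians of 1048, 986 and 1688 UMIs per cell against 3558 to 16710 in the others. In all, 37 barcode sequences occurred in more than 1 library.

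In the study, P3 sub-clusters 0 and 2 and 3m sub-clusters 7 and 14 lay on the main lineage, and P3 sub-clusters 1, 9 and 11 resembled sub-cluster 0 and mixed with telencephalic astrocytes of a reference atlas. It placed P3 sub-clusters 3, 4, 5, 10, 12 and 15 and 3m sub-clusters 13 and 16 with non-telencephalic ones. For this second set the study proposed that the cells could be contaminants from neighbouring brain regions. Both sets are named here after a member, as the sub-cluster 0 group and the sub-cluster 3 group. No factor of the midbrain or hindbrain marked the second. Non-telencephalic also covers the diencephalon and hypothalamus, so the study's placement was not tested by this. *Six3* and *Emx2*, factors of the anterior neural tube, were abundant in the P3 sums of both groups. In the summed cells of the sub-cluster 3 group *Six3* reached 115, 121 and 104 CPM in P3 libraries 1, 2 and 3, against 100.3, 95.5 and 101 CPM in the sub-cluster 0 group. In the 3m libraries it was 48.8, 66.3 and 95.5 CPM against 55.7, 103 and 51.5 CPM. *Emx2* was 16.3, 14.9 and 39.1 CPM at 3m against 52.9, 66.0 and 70.8 CPM. The study's clusters were built on all genes of these cells, so differences between sub-clusters are descriptions without a test.

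Of the 37 factors, 21 averaged 20 CPM or more in 1 or more of the astroglial sub-clusters, the cycling progenitor clusters GPC_8 and GPC_9, the oligodendrocyte precursor cluster OPC_18 or the neuron cluster NEU_22. They were 5 of 5 factors of the pallium and anterior head, 7 of 8 of the subpallium, 3 of 3 TALE cofactors, 2 of 3 of the ventral neural tube, 2 of 4 Zic factors, 1 of 4 of the diencephalon and 1 of 4 Iroquois factors. None of the 6 factors of the midbrain, roof plate and dorsal neural tube reached that level. Of 58 further patterning genes, 14 reached it, and the 14 Hox genes among them had 5 UMIs in all astroglial cells together.

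**Figure D1:**
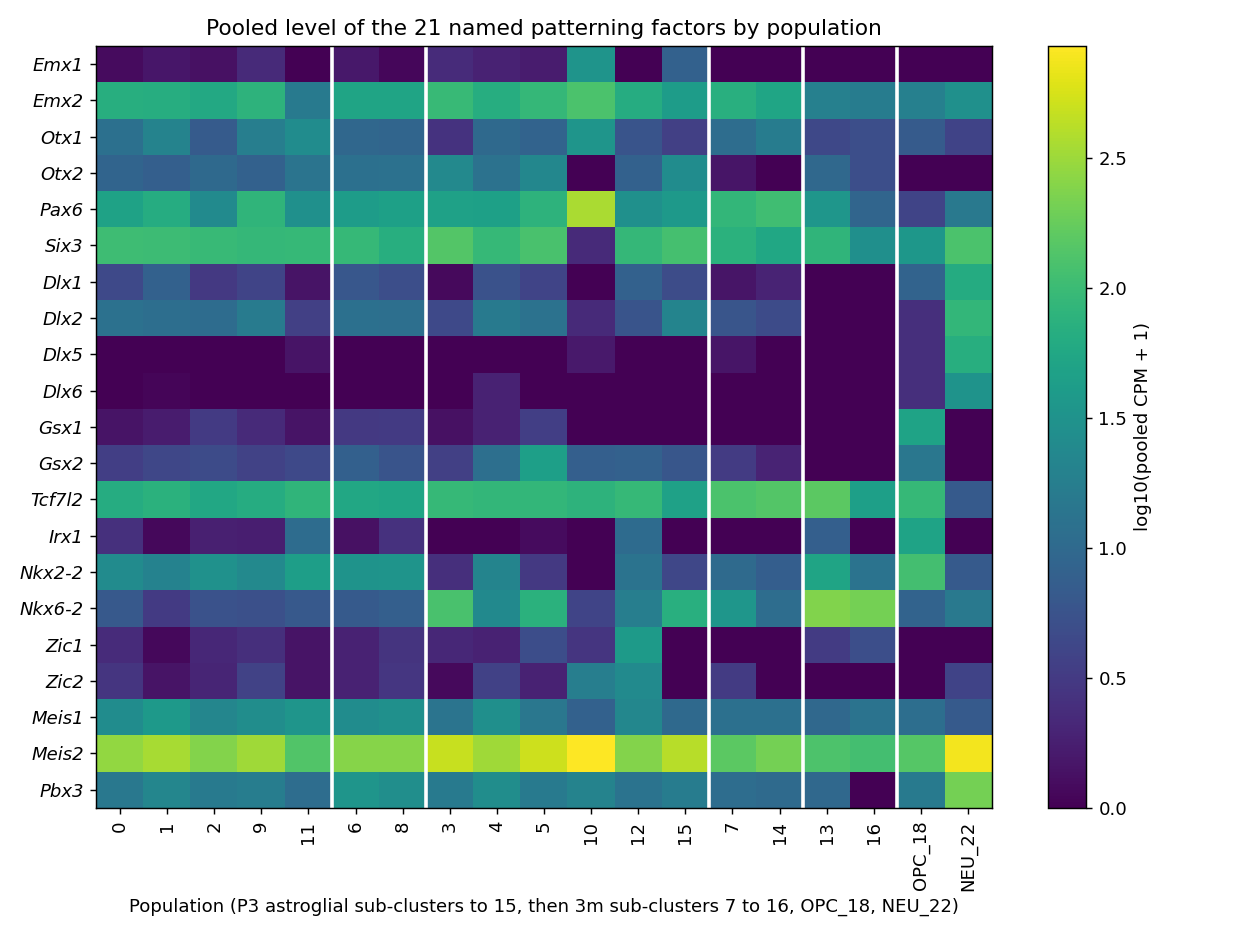
Pooled level (log10 of CPM + 1, colour scale) of the 21 patterning factors that reached 20 CPM, by astroglial sub-cluster, OPC_18 and NEU_22. *Pax6* and *Meis2* are brightest in sub-cluster 10, where *Six3* is almost dark, and *Dlx5* and *Dlx6* are bright in NEU_22 alone.

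*Six3*, *Gsx2*, *Nkx2-2* and *Nkx6-2* were chosen, after their values were seen, as factors that set sub-clusters clearly apart. The sequence just upstream of the RefSeq start of each gene is shown so that these regulators can be read beside their levels. The sequences come from RefSeq, with coordinates of build GRCm38.p6 and reading 5′ to 3′ on the gene's own strand. The window of *Six3* is chr17:85620584-85620789 on the plus strand, 206 bases that end 44 bases before the RefSeq start. That of *Gsx2* is chr5:75075351-75075600 on the plus strand, that of *Nkx2-2* chr2:147186405-147186652 on the minus strand and that of *Nkx6-2* chr7:139582798-139583047 on the minus strand. In the GENCODE M21 annotation the windows of *Six3* and *Nkx2-2* lie inside the gene (chr17:85613608-85629302 and chr2:147177546-147194243). They therefore precede an internal start there and are not upstream of the whole gene. Capitals mark, on either strand, the CCAAT box (CCAAT), the GC box (GGGCGG) and the TATA box (TATAAA).
Six3: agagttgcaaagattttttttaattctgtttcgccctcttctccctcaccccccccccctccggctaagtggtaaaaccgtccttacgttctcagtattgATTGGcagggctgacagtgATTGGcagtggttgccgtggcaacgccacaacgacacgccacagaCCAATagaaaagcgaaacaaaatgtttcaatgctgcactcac
Gsx2: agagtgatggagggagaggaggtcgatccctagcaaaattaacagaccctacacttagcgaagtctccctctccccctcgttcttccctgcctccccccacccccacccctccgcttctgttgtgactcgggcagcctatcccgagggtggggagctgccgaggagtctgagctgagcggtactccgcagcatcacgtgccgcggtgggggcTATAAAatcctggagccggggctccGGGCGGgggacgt
Nkx2-2: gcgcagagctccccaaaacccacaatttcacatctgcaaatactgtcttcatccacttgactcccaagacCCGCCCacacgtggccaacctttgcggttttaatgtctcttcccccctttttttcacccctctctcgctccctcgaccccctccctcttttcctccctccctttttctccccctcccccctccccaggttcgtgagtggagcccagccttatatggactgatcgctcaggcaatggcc
Nkx6-2: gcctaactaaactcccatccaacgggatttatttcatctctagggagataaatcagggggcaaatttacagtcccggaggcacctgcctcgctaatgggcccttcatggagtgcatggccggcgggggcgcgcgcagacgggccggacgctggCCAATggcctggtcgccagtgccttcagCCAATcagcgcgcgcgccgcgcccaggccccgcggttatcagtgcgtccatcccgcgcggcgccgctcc

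The windows differed in these letters. *Six3* held 3 CCAAT boxes, *Nkx6-2* held 2, *Gsx2* held 1 GC box and 1 TATA box, and *Nkx2-2* held 1 GC box. Over 32851 upstream windows of 250 bases, 33.9% held CCAAT, 32.7% GGGCGG, 12.4% TATAAA and 4.84% TAATTA, a core bound by many homeodomain factors, which was in none of the 4 windows. *Nkx6-2* and *Gsx2* were rich in G and C (65.2% and 63.6%), *Nkx2-2* had 56.5% and *Six3* 49.5%, against a median of 52.4%. These matches describe the letters and were not tied to binding.

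Among the factors of the pallium and anterior head, sub-cluster 10 held the highest levels. *Pax6*, which drives dorsal forebrain and olfactory bulb fates, reached 391, 383 and 355 CPM there in P3 libraries 1, 2 and 3 (377 ± 18.9, SD, n = 3). The next highest sub-cluster was 14, with 109 CPM in its only library, and in the remaining sub-clusters the mean ran from 3.77 CPM in 16 to 84.7 CPM in 9. Sub-cluster 10 thus stood above every other astroglial sub-cluster in each of its 3 libraries. *Emx2*, a dorsal and anterior factor, reached 133, 117 and 125 CPM in it (125 ± 7.97). *Emx1*, its close relative and a marker of pallial progenitors, gave 6.99, 32.8 and 38.4 CPM there and at most 5.84 CPM as a mean elsewhere. Of 332 cells, 250 had a *Pax6* UMI, and 45 an *Emx1* UMI, and 99 of the 134 cells with *Emx2* also had *Pax6*.

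Other dorsal forebrain genes followed *Pax6* in sub-cluster 10. *Fezf2* and *Dmrta2*, regulators of cortical progenitors, were 27.9, 65.7 and 72.2 CPM and 66.4, 73.0 and 77.6 CPM there, and both had 0 UMIs in sub-cluster 11. They were also among the 10 leading genes of sub-cluster 10. *Lhx2* averaged 273 ± 84.0 CPM, the highest mean of all sub-clusters, but did not set sub-cluster 10 clearly apart. Sub-cluster 10 was highest in 2 of its 3 libraries. The P3 sums of the whole sub-cluster 3 group, which includes it, were 210, 230 and 255 CPM in libraries 1, 2 and 3. The 3m sums of the sub-cluster 0 group were 250, 259 and 229 CPM, and all these sums lay within that SD of the mean. *Nr2f2*, a factor of caudal and ventral forebrain, had 1 UMI in sub-cluster 10 against 175 ± 14.4 CPM in sub-cluster 11.

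*Otx1* and *Otx2*, paired factors of the anterior head, did not follow each other. *Otx1* was 31.4, 43.8 and 30.1 CPM in sub-cluster 10, whereas *Otx2* had 0 UMIs among 1655248, which allows up to 1.81 CPM. In sub-clusters 3 and 15 the order was the opposite. *Otx2* was 12.3, 22.7 and 25.4 CPM in sub-cluster 3 and 36.1, 29.4 and 20.8 CPM in sub-cluster 15, and *Otx1* averaged 3.84 and 1.80 CPM there. *Otx1* also stood out in sub-cluster 1, at 18.8, 23.6 and 64.6 CPM, where libraries 2 and 3 contributed only 29 and 26 cells.

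*Six3*, a factor of the anterior neural plate that ventral forebrain cells retain, showed the sharpest contrast between sub-clusters. In the other P3 sub-clusters its mean was 61.1 to 141 CPM, and in sub-clusters 3, 5 and 15 it was 141 ± 5.45, 134 ± 25.3 and 117 ± 4.99 CPM (SD, n = 3). In sub-cluster 10 it was 0, 0 and 1.83 CPM, from 2 UMIs in 2 of 332 cells. To compare shares of cells at equal depth, 2000 UMIs were drawn from each cell, without the cells that had fewer (7 in sub-cluster 10, 138 in sub-cluster 0, 5 in sub-cluster 3 and 26 in the microglial cluster MIC_16). *Six3* was then detected in 0.308% of cells of sub-cluster 10, 17.9% of sub-cluster 0 and 25.3% of sub-cluster 3, and in 0.633% of microglia, which should lack it. Without thinning the shares were 0.602%, 46.5%, 60.4% and 1.63%. The share in sub-cluster 10 was therefore not above background. *Pax6* ran the other way, with 53.8% in sub-cluster 10, 8.63% in sub-cluster 0, 8.63% in sub-cluster 3 and 0.633% in microglia, and 75.3%, 27.8%, 27.0% and 2.17% without thinning.

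The remaining subpallial factors were low in astroglia. *Dlx1* and *Dlx2*, neighbours on chromosome 2 whose starts lie 18641 bases apart and that specify ventral forebrain neurons, averaged at most 13.6 CPM (sub-cluster 1) and 16.3 CPM (sub-cluster 15). In sub-cluster 10 they had 0 and 2 UMIs. *Dlx5* and *Dlx6*, with starts 18751 bases apart on chromosome 6, had 3 and 2 UMIs in all astroglial cells. *Gsx2*, which specifies lateral ganglionic eminence progenitors, marked sub-cluster 5, with 65.4, 35.4 and 52.5 CPM (51.1 ± 15) against a mean of at most 12.6 CPM in any other sub-cluster. Sub-cluster 3 resembled sub-cluster 5 in *Six3*, *Emx2* and *Nkx6-2*, but its *Gsx2* was 6.16, 2.06 and 2.72 CPM. After thinning, *Gsx2* was in 8.73% of cells of sub-cluster 5 and 0.387% of sub-cluster 3 (17.9% and 1.54% without thinning), and in 0 of 158 microglial cells. *Nkx2-1*, a factor of the medial ganglionic eminence and hypothalamus, averaged 13.1 ± 1.77 CPM in sub-cluster 11 and at most 10.8 CPM elsewhere.

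*Nkx2-2* and *Nkx6-2*, homeodomain factors of the ventral neural tube, divided the P3 sub-clusters between them. *Nkx2-2* averaged 20.6 to 42.6 CPM in sub-clusters 0, 1, 2, 9 and 11 and 29.9 and 31.9 CPM in the cycling sub-clusters 6 and 8. It averaged 1.90, 1.36 and 2.55 CPM in sub-clusters 3, 5 and 15 and had 0 UMIs in sub-cluster 10. *Nkx6-2* was 67.8, 107 and 152 CPM in sub-cluster 3, 50.3, 59.0 and 97.8 CPM in sub-cluster 5 and 96.3, 38.0 and 87.0 CPM in sub-cluster 15. In sub-clusters 0, 1, 2, 9 and 11 it averaged 0.749 to 6.80 CPM, and every library of sub-clusters 3, 5 and 15 lay above that. Sub-cluster 10 had little of either factor (*Nkx6-2* 1.52 CPM), and sub-clusters 4 and 12 had some of both, with *Nkx2-2* at 10.2 and 10.8 CPM and *Nkx6-2* at 12.6 and 18.8 CPM.

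*Nkx6-2* is also a factor of myelinating oligodendrocytes, where it was 637, 750 and 788 CPM in cluster ODC_10 (3m libraries 1, 2 and 3). In P3 sub-clusters 3, 5 and 15 the 5 oligodendrocyte markers summed to 4.23, 5.02 and 2.56 CPM, with 2 of 5 detected. Markers of another cell type were higher in these sub-clusters, in a different order from *Nkx6-2*. The 5 markers of multiciliated cells summed to 318, 242 and 2064 CPM in sub-clusters 3, 5 and 15, against 7.68 to 33.2 CPM in the other P3 sub-clusters apart from 4 and 12 (182 and 140 CPM). Their part in the level of *Nkx6-2* was not tested.

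**Figure D2:**
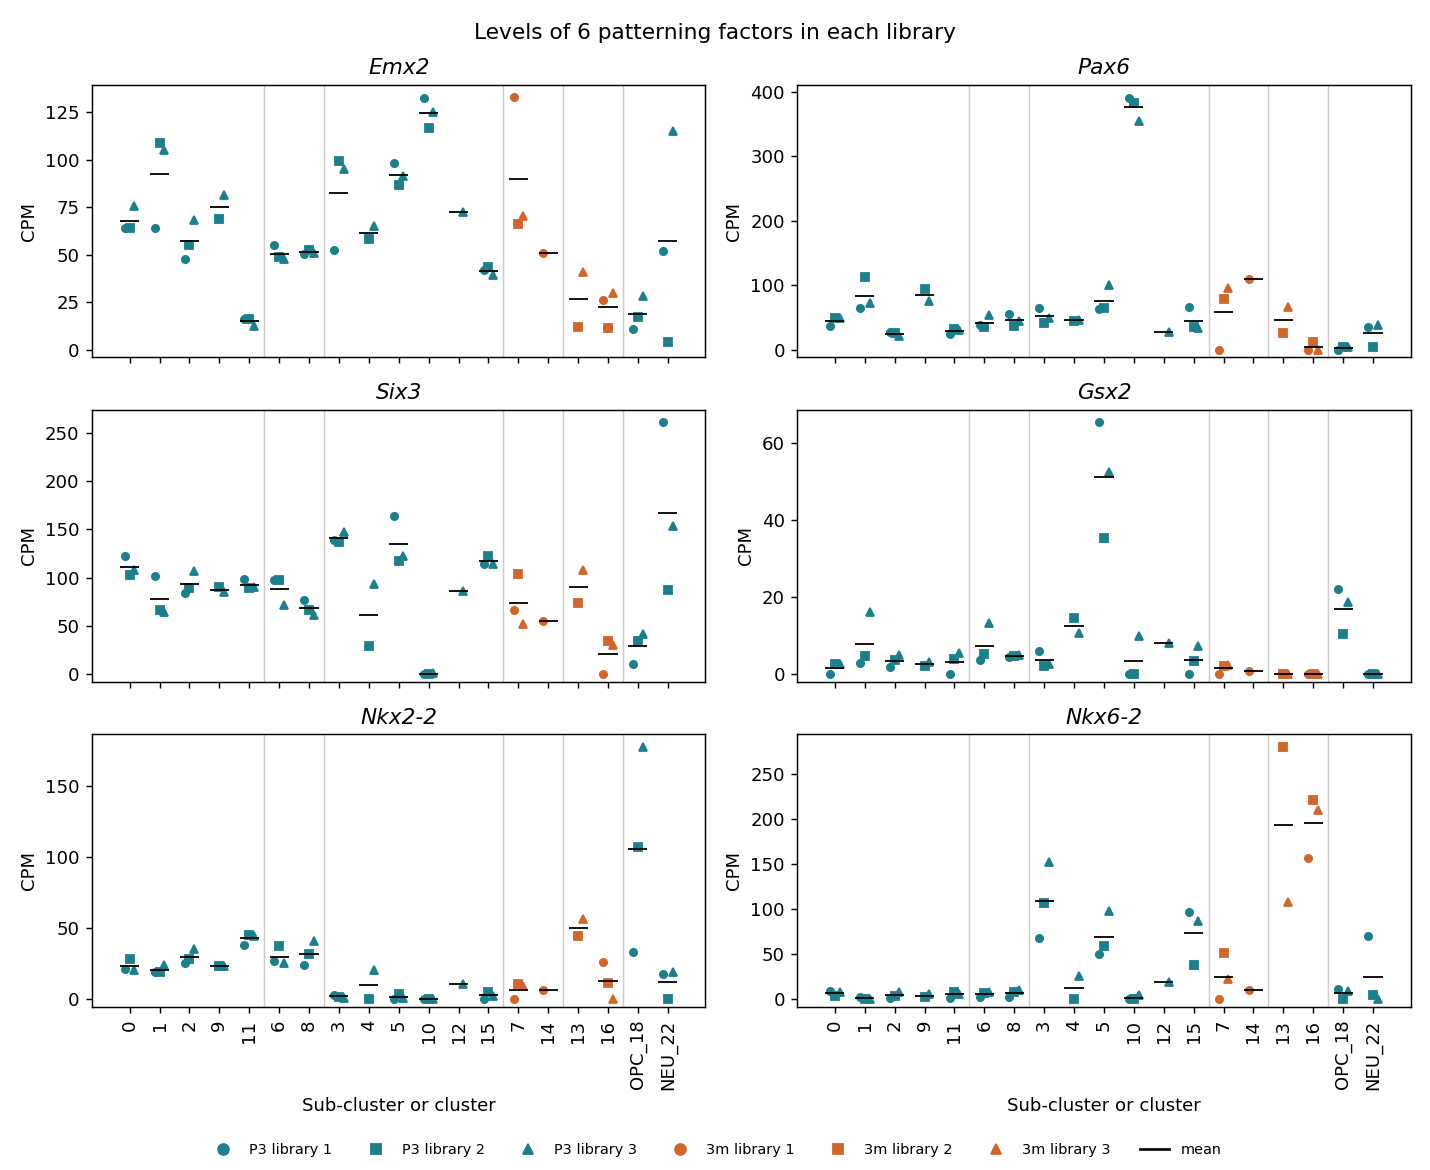
Level (CPM) of 6 patterning factors in each library (points) with the mean over libraries (black line), by astroglial sub-cluster, OPC_18 and NEU_22. *Six3* is near 0 in all 3 libraries of sub-cluster 10 where *Pax6* lies between 355 and 391 CPM, and *Nkx2-2* and *Nkx6-2* are high in different P3 sub-clusters.

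Sub-cluster 11, which the study placed with the telencephalic cells, departed from the rest of its group in several factors. *Emx2* was 15.9, 16.1 and 12.5 CPM (14.8 ± 1.98), the lowest of the P3 sub-clusters, which otherwise averaged 41.5 to 125 CPM. *Meis2*, a TALE cofactor abundant in the ventral forebrain, was also lowest there, at 162, 124 and 131 CPM against a mean of 247 to 868 CPM in the others. *Nkx2-2* was the highest of the P3 sub-clusters, at 38.0, 45.2 and 44.6 CPM. The forebrain factor *Lhx2* was low as well, at 20.6, 24.1 and 20.9 CPM whereas the means of the other P3 sub-clusters started at 76.9 CPM. *Six3* was nevertheless 98.3, 89.4 and 90.6 CPM.

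The 3m sub-cluster 13, which the study placed with the non-telencephalic cells, shared much of this profile. In 3m libraries 2 and 3 *Emx2* was 11.8 and 41.0 CPM, *Lhx2* 30.9 and 35.9 CPM and *Meis2* 131 and 123 CPM. *Nkx2-2* was 44.1 and 56.3 CPM and *Six3* 73.6 and 108 CPM. Low levels of *Nkx2-1* (10.3 and 5.12 CPM) and *Irx1* (7.36 and 5.12 CPM) were likewise present in both sub-clusters, and *Irx1* in sub-cluster 11 was 6.34, 12.1 and 9.75 CPM. They differed in *Nkx6-2*, at 280 and 108 CPM in sub-cluster 13 and 1.59, 8.04 and 5.57 CPM in sub-cluster 11, and in *Otx1*, at 2.94 and 5.12 CPM and 30.1, 19.1 and 30.7 CPM. After thinning, *Nkx6-2* was in 28.9% of cells of sub-cluster 13 and 1.01% of sub-cluster 11, and in 0.633% of microglia (48.5%, 2.93% and 1.63% without thinning). *Agt*, the angiotensinogen gene that marks astrocytes of the diencephalon and brainstem, was among the 10 leading genes of both.

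Sub-cluster 16, the other 3m member of the sub-cluster 3 group, gave low but imprecise levels of forebrain factors. *Emx2* was 26.0, 11.3 and 30.0 CPM in 3m libraries 1, 2 and 3, *Pax6* 0, 11.3 and 0 CPM and *Six3* 0, 33.9 and 30.0 CPM. These libraries gave it 14, 89 and 18 cells, with 248668 UMIs in all. Over its pooled cells 3 UMIs equal 12.1 CPM, so these values rest on few UMIs and a 0 in a library does not show absence. *Nkx6-2* was high, at 156, 220 and 210 CPM. At least 1 UMI of the oligodendrocyte genes *Mog*, *Mobp* or *Opalin* was in 75.0% of its cells with *Nkx6-2* and in 90.1% of those without, against 33.7% and 22.1% in sub-cluster 13.

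Posterior and dorsal factors were at or near 0 in every astroglial sub-cluster. *Lhx9* and *Gbx2*, of the diencephalon and isthmus, had 1 UMI each among 82000642 astroglial UMIs, *Pax2* had 1, *Pax3* and *En2* had 2, *Lmx1a* had 5, and *Pax7* and *Nkx6-1* had 0. *En1*, an Engrailed factor of the midbrain and hindbrain, had 67 UMIs and averaged at most 2.30 CPM (sub-cluster 2). The Iroquois factors *Irx1*, *Irx2*, *Irx3* and *Irx5* had 88, 29, 54 and 37 UMIs. For *Irx1*, *Irx2* and *Irx3* the highest sub-cluster mean was in sub-cluster 11 (9.38, 4.60 and 7.37 CPM). *Irx5*, whose start lies 555558 bases from that of *Irx3* on chromosome 8, was highest in sub-cluster 15 (5.16 CPM) instead. None of these factors averaged 10 CPM in any astroglial sub-cluster.

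*Tcf7l2*, a Wnt effector with strong expression in the thalamus, was present throughout, from 43.7 CPM in sub-cluster 16 to 142 CPM in sub-cluster 14. After thinning it was detected in 12.6% of cells of sub-cluster 0 and in 8.23% of microglia (36.7% and 16.9% without thinning), so it was not particular to astroglia. *Rax*, a factor of the hypothalamus and retina, had 18 astroglial UMIs, of which 12 lay in sub-cluster 7 and 4 in sub-cluster 14.

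Zic factors, zinc-finger proteins of the dorsal midline and of meningeal and mural cells, were low in astroglia with exceptions in sub-clusters 10 and 12. *Zic2* and *Zic5*, whose starts lie 9758 bases apart on chromosome 14, were 0, 18.2 and 21 CPM and 17.5, 14.6 and 23.7 CPM in sub-cluster 10. *Zic1* was 35.0 CPM and *Zic2* 26.9 CPM in sub-cluster 12, both from P3 library 3, the only library with 10 or more of its cells (273). That sub-cluster also carried markers of vessels, with 1445 CPM over 4 of 4 pericyte markers and 446 CPM over 3 of 3 endothelial markers, against at most 129 and 9.0 CPM in the other sub-clusters. Its ratio of *Zic1* (16 UMIs) to the pericyte gene *Rgs5* was 0.0476, against 0.0513 in the pericyte cluster PER_6 and 0.0436 in the endothelial cluster END_7. Its ratio of *Zic2* (10 UMIs) to *Rgs5* was 0.0298, between 0.00941 in PER_6 and 0.0586 in END_7. The part of vessel RNA in the Zic levels of sub-cluster 12 was not tested. Of its 21 cells with a *Zic1*, *Zic2* or *Zic4* UMI, 20 also had a pericyte or endothelial UMI (95.2%, against 76.0% of the other cells, with medians of 1267 and 956 UMIs). In sub-cluster 10 the ratio of *Zic2* to *Rgs5* was 0.308, above 0.00941 in PER_6 and 0.0586 in END_7. *Zic1* and *Zic4* overlap by 3397 bases on opposite strands of chromosome 9, so reads there could belong to either gene.

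The TALE cofactors *Meis1*, *Meis2* and *Pbx3*, which bind DNA together with other homeodomain factors, differed in spread. *Meis2* was the most abundant member, at 824, 934 and 845 CPM in sub-cluster 10 and 474 to 526 CPM in all libraries of sub-clusters 3 and 5. *Meis1* was highest in sub-cluster 1 (48.0 ± 15.7 CPM) and 9.88 and 8.49 CPM in sub-clusters 10 and 15. *Pbx3* was highest in the cycling sub-cluster 6 (34.0 ± 10.4 CPM, SD, n = 3). The cycling progenitor clusters GPC_8 and GPC_9 had *Pbx3* at 35.2 and 27.5 CPM, *Emx2* at 50.8 and 50.6 CPM and *Six3* at 89.6 and 66.5 CPM.

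Cells outside the astroglia expressed other members. In OPC_18, 107 cells carrying the oligodendrocyte precursor marker *Pdgfra* as their leading gene, *Gsx1* was 22.0, 38.0 and 79.2 CPM in the P3 libraries, against a mean of at most 2.26 CPM in any astroglial sub-cluster. *Irx1* was 11.0, 31.1 and 46.6 CPM and *Nkx2-2*, which promotes oligodendrocyte differentiation, 33.1, 107 and 177 CPM. *Gsx1* and *Irx1* rested on 33 UMIs each and were found in 24 and 22 cells, of which 3 had both. After thinning, *Gsx1* was in 6.80% and *Irx1* in 4.85% of cells (22.4% and 20.6% without thinning), and 0 of 158 microglial cells had a UMI of either. A count of 0 allows up to 1.90% of microglia with a UMI at this depth, which limits cells with a UMI and not cells expressing the gene.

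NEU_22 held 53 cells, all from P3, and was not uniform in its patterning factors. *Dlx1*, *Dlx2*, *Dlx5* and *Dlx6* averaged 113, 156, 108 and 53.5 CPM, with *Dlx1* at 69.5, 20.7 and 250 CPM, so the libraries differed widely. At least 1 *Dlx* UMI was found in 28 cells. The other 25 cells included all 7 with *Lhx1*, a factor of Purkinje and diencephalic neurons. These 7 cells were deeper, with a median of 27090 UMIs against 2751 in the rest. *Pcp2* and *Calb1*, genes of cerebellar Purkinje cells, led the cluster. *Meis2*, *Six3* and *Pbx3* were 1295, 167 and 310 CPM on average. RNA of astrocyte genes was unequal as well. *Slc1a3*, *Aldoc* and *Sox9* were 973, 973 and 434 CPM in P3 library 1, against 124, 70.5 and 20.7 CPM in library 2 and 76.9, 57.6 and 76.9 CPM in library 3. Its part in the levels above was not tested.

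The age comparison asks which factors differ between P3 and 3m astroglia. Sums over all astroglial cells include the sub-cluster 3 group, so they are not confined to the study's main striatal lineage. UMIs were summed per library, and a factor was called when its adjusted p did not exceed 0.05 and its log2 fold change was 1 or more in size. In these sums, fewer cells carrying a factor and fewer UMIs in each cell cannot be told apart. Over all astroglial cells, 22 of the 37 factors could be tested and 8 were called, 3 higher and 5 lower at 3m. Among all 13530 genes tested, 32.1% were called. Their median log2 fold change was -0.28, against -0.04 over all genes, and 2 of the 14 further patterning genes tested were called, *Fezf2* higher by 2.77 and *Nr2f2* lower (-1.01). Factors could pass the filter through the age at which they were high, so these counts support no statement on the list.

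Of the 6 subpallial factors tested over all astroglial cells, 3 were called, all lower at 3m, against 16.3% of all genes tested that were called lower. *Gsx2* was 4.08, 5.88 and 8.95 CPM at P3 and 0.864, 1.63 and 2.04 CPM at 3m (log2 fold change -1.81 ± 0.54, SE, adjusted p = 0.0136). *Dlx2* was 8.64, 9.73 and 12.6 CPM and then 3.46, 1.08 and 6.11 CPM (-1.41 ± 0.42, adjusted p = 0.0144). *Dlx1* had 291 UMIs at P3 and 3 at 3m, a ratio of CPM of 0.179 (95% counting interval 0.0366 to 0.527, adjusted p = 0.0148). Such intervals cover counting error only. None of these pairs of ages overlapped. How many of all genes tested had ages that did not overlap was not counted. Overlap of ages, here and below, therefore describes the values alone. Each call was lost in the cells with more than 1000 genes and less than 5% of UMIs from mitochondrial genes (-0.43, -1.59 and -1.76, adjusted p = 0.722, 0.0958 and 0.308). Those cells left 50876, 507515 and 355535 UMIs in the 3m sums, from 1157485, 1843998 and 1472498. The calls of *Dlx1* and *Dlx2* were also lost without 3m library 2 (0.0630 and 0.0791). Leaving out 3m library 3 ended the call of *Dlx1* as well (0.0508). Within the sub-cluster 0 group *Gsx2* was not called. Of its P3 UMIs, 238 lay in the sub-cluster 3 group and 133 in the sub-cluster 0 group. The part of that mixture in the fall of *Gsx2* was not tested.

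*Otx2* fell from 9.58, 11.7 and 11.0 CPM to 0, 4.34 and 1.36 CPM (-2.10 ± 0.50, adjusted p = 0.00352), and *Meis1* from 35.2, 20.6 and 21.7 CPM to 11.2, 9.76 and 12.2 CPM (-1.03 ± 0.27, adjusted p = 0.00701). *Meis2* and *Pbx3* had adjusted p-values of 0.00212 and 0.0100 but changes of -0.78 and -0.95, short of the threshold. *Emx2* and *Six3* gave -0.10 ± 0.19 and -0.34 ± 0.19 and were not called. In the cells with over 1000 genes *Otx2* and *Meis1* were not called (adjusted p = 0.0894 and 0.273). *Meis1* lay close to the threshold and also dropped below it without P3 library 1 (-0.74), without 3m library 2 (-0.995) and without the cycling sub-clusters (-0.97).

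*Tcf7l2* rose from 68.0, 61.5 and 70.8 CPM to 140, 135 and 115 CPM (1.15 ± 0.15, adjusted p = 4.39e-05). Without scaling beyond library totals the change was 0.96. *Rax* had 1 UMI at P3 and 17 at 3m, with 4.32, 3.80 and 3.40 CPM in the 3m libraries, a ratio of 295 (95% counting interval 46.2 to 12310, adjusted p = 4.11e-06). *Rax* entered this test through the 3m libraries alone, so its p-value is a description and no support. It did not pass the filter on low counts, and so was not tested, when any 1 library was left out, in the cells with over 1000 genes or in sums thinned to the total of the smallest. *Nkx6-2* was 4.75, 19.2 and 30.2 CPM at P3 and 17.3, 152 and 37.4 CPM at 3m (2.19 ± 0.65, adjusted p = 0.0130), with overlapping ages. Without 3m library 2 it was 0.77 (adjusted p = 0.358), and DESeq2 did not call it (adjusted p = 0.0946). In the order of these libraries, the sub-cluster 3 group made up 7.05%, 28.1% and 50.2% of astroglial cells at P3 and 7.98%, 47.8% and 13.9% at 3m. The part of that mixture in the value was not tested.

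Within the sub-cluster 0 group, 18 factors could be tested and 9 were called, 4 higher and 5 lower, against 29.6% of 12335 genes. *Pax6* rose from 55.8, 44.3 and 46.4 CPM to 106, 77.3 and 95.8 CPM (1.13 ± 0.17, adjusted p = 9.31e-06). *Tcf7l2* rose from 71.6, 58.9 and 68.8 CPM to 142, 134 and 117 CPM (1.18 ± 0.16, adjusted p = 2.73e-06). The ages did not overlap for either gene, although both changes fell just short of 1 without scaling (0.93 and 0.98), and *Pax6* gave 0.84 in cells with over 1000 genes. *Rax* had 0 UMIs at P3 and 16 at 3m, so it passed the filter on low counts through the 3m libraries alone (adjusted p = 1.91e-07). Against a floor of 3 UMIs over the P3 libraries, *Rax* was at least 70.8-fold higher at 3m, a bound that leaves out counting error in the 16 UMIs. As over all astroglial cells, it could not be tested without any 1 library, in the cells with over 1000 genes or in thinned sums, nor in the sub-clusters of the main lineage alone.

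*Nkx2-2* fell within this group, from 20.7, 28.5 and 26.5 CPM to 6.39, 10.3 and 8.86 CPM (-1.38 ± 0.29, adjusted p = 0.000455). *Nkx6-2* rose from 2.42, 3.89 and 7.16 CPM to 10.0, 50.5 and 21.7 CPM (2.81 ± 0.42, adjusted p = 7.93e-06), and stayed called without 3m library 2 (2.03, adjusted p = 0.000733). Oligodendrocyte markers summed to 323 and 198 CPM in 3m sub-clusters 7 and 14 with 5 of 5 detected, and to 347 CPM in microglia. *Nkx6-2* itself was 0, 0 and 31.1 CPM in microglia of the P3 libraries and 0, 19.9 and 0 CPM in those of 3m. The part of oligodendrocyte RNA in the rise was not tested.

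*Otx2* was 8.50, 7.53 and 8.0 CPM at P3 and had 1 UMI at 3m, a ratio of 0.0378 (95% counting interval 0.000954 to 0.212, adjusted p = 3.73e-05). *Meis1* fell from 35.6, 24.0 and 25.1 CPM to 10.9, 10.3 and 12.1 CPM (-1.13 ± 0.26, adjusted p = 0.000901). *Dlx1* had 173 and 2 UMIs, a ratio of 0.153 (0.0184 to 0.562, adjusted p = 0.0184), and *Dlx2* changed by -1.07 ± 0.39 (adjusted p = 0.0286). Both *Dlx* calls ended in several alternatives, *Dlx2* when 3m library 1 or 2 or P3 library 2 or 3 was left out (adjusted p = 0.0693 to 0.124) and *Dlx1* without 3m library 3 (0.107). In cells with over 1000 genes neither was called, nor were *Nkx2-2* (adjusted p = 0.0917) and *Meis1* (0.276), and *Meis1* was -0.94 without P3 library 1. *Emx2* (0.20 ± 0.18), *Six3* (-0.31 ± 0.21) and *Gsx2* (-0.55 ± 0.58, adjusted p = 0.459) were not called. Of 12 further patterning genes tested, 4 were called: *Lhx2* and *Fezf2* rose by 1.48 and 4.87, and *Nr2f2* and *Vax1* fell by 1.65 and 2.68.

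The sub-cluster 3 group was compared without cells of cluster 19, whose leading genes are those of multiciliated cells. It held 140, 871 and 1899 cells at P3 but 17, 261 and 50 at 3m, so 3m library 2 weighed most. Of 10 factors that could be tested 6 were called, 2 higher and 4 lower, against 28.7% of 8546 genes, and 5 of 10 further patterning genes were called, all lower. Among these were *Lhx2* (-2.15), *Nr2e1* (-2.26), *Fezf2* (-3.03) and *Meis3* (-2.43). *Nkx2-2* rose from 2.83, 2.29 and 4.24 CPM to 81.4, 36.6 and 47.7 CPM (4.05 ± 0.39, adjusted p = 9.44e-10). *Meis2* fell from 590, 503 and 514 CPM to 65.1, 136 and 122 CPM (-1.81 ± 0.29, adjusted p = 8.78e-06). These calls held in each fit that left out a library. In the cells with over 1000 genes and in thinned sums *Meis2* was called (-1.62 and -2.18), and *Nkx2-2* did not pass the filter on low counts.

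The other 4 calls of this group rested on 3m library 2. *Emx2* was 91.4, 93.3 and 91.3 CPM at P3 and 16.3, 14.9 and 39.1 CPM at 3m (-1.79 ± 0.35, adjusted p = 0.000177), and without that library -1.20 (0.0818). *Pax6* was 156, 67.9 and 112 CPM and then 0, 21.7 and 56.4 CPM (-1.55 ± 0.39, adjusted p = 0.00261), and without that library -1.09 (0.173). *Nkx6-2* was 43.3, 80.6 and 86.3 CPM and then 147, 264 and 122 CPM (1.76 ± 0.29, adjusted p = 1.48e-05), and without that library 1.06 (0.0596). The ages did not overlap for any of them.

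*Gsx2* had 238 UMIs at P3 and 1 at 3m in these sub-clusters, a ratio of 0.0481 (95% counting interval 0.00121 to 0.270, adjusted p = 0.000541, and 0.0509 without 3m library 2). Without sub-cluster 10 the *Pax6* difference was -0.72 (adjusted p = 0.1304), and *Emx2* was not called in cells with over 1000 genes (adjusted p = 0.0964). Oligodendrocyte markers summed to 1334 CPM in sub-cluster 13 and 15930 CPM in sub-cluster 16, with 5 of 5 detected in both, and their part in the rise of *Nkx6-2* and *Nkx2-2* was not tested. Without sub-clusters 12 and 16 all 6 factors were still called.

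**Figure D3:**
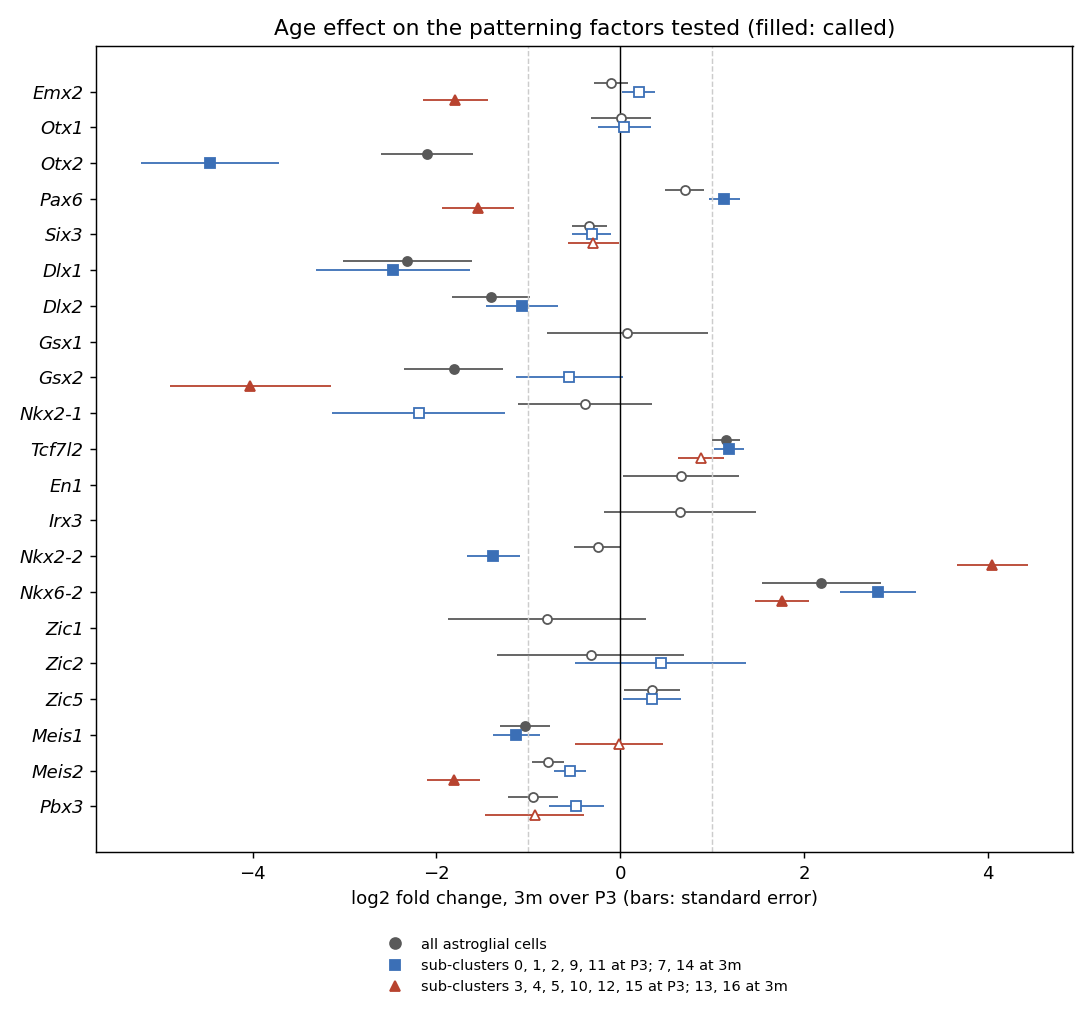
Log2 fold change of 3m over P3 (points, with standard errors) for each patterning factor tested, in all astroglial cells (circles), the sub-cluster 0 group (squares) and the sub-cluster 3 group (triangles), with filled points for called factors and dashed lines at 1 and -1. *Pax6* and *Nkx2-2* lie on opposite sides of 0 in the sub-cluster 0 and sub-cluster 3 groups, *Tcf7l2* is above 0 in all comparisons, and *Rax* is left out because it had at most 1 UMI at P3.

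Whether the age effect differed between the groups was tested directly, as an interaction with the library as a block. Of 14 factors that could be tested 5 were called, 1 with a positive and 4 with a negative difference, against 16.7% of 9949 genes (8.25% positive and 8.48% negative). The age effect in the sub-cluster 3 group minus that in the sub-cluster 0 group was 5.40 ± 0.49 for *Nkx2-2* (adjusted p = 9.77e-09) and -2.63 ± 0.36 for *Pax6* (adjusted p = 6.07e-06), which thus moved in opposite directions in the groups. It was -2.18 ± 0.33 for *Emx2* (adjusted p = 2.14e-05), -1.28 ± 0.22 for *Meis2* (adjusted p = 0.000110) and -1.42 ± 0.30 for *Nkx6-2* (adjusted p = 0.000860). *Nkx6-2* rose in both groups but by less in the sub-cluster 3 group, and its difference was not called without 3m library 2 (adjusted p = 0.05004). *Meis2* was not called in cells with over 1000 genes (adjusted p = 0.0999). *Six3* gave -0.34 ± 0.28 and *Tcf7l2* -0.42 ± 0.22 and were not called (adjusted p = 0.442 and 0.181). Among 10 further patterning genes 5 were called, among them *Lhx2* (-3.79), *Nr2e1* (-2.36), *Fezf2* (-7.80) and *Nr2f2* (1.92).

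**Figure D4:**
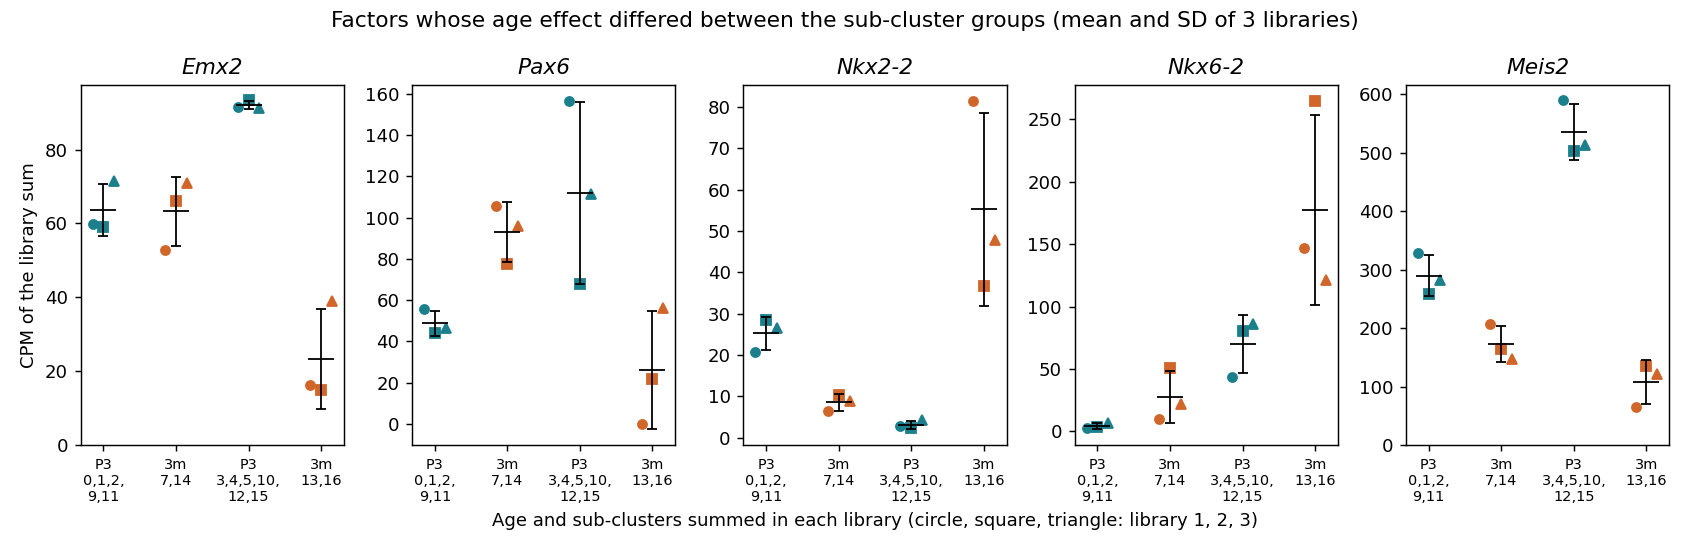
Level (CPM of the library sum) of the 5 factors whose age effect differed between the groups, at P3 (teal) and 3m (orange), with the mean and SD of 3 libraries. *Nkx2-2* drops with age in sub-clusters 0, 1, 2, 9, 11, 7 and 14 and rises in the others, and *Emx2* overlaps between the ages in the former and is lower at 3m in the latter.

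The age effect in the sub-cluster 3 group depended on which P3 cells stood for 13 and 16. Because sub-cluster 11 resembled sub-cluster 13 in *Emx2*, *Meis2* and *Nkx2-2*, it was set in place of the other P3 sub-clusters, a choice made after these levels were seen and therefore given as a description. The log2 difference of 13 and 16 from the P3 cells then went from -1.79 to 0.50 ± 0.47 for *Emx2*, from -1.55 to 0.22 ± 0.41 for *Pax6*, from -1.81 to -0.01 ± 0.25 for *Meis2* and from 4.05 to 0.24 ± 0.33 for *Nkx2-2*. It went from 1.76 to 5.33 ± 0.38 for *Nkx6-2*, and was -1.53 ± 0.48 for *Meis1* and -2.62 ± 0.61 for *Otx1*. *Six3* and *Tcf7l2* moved little, from -0.29 to -0.14 and from 0.88 to 0.75. The interaction kept its 5 calls when sub-cluster 11 was moved to the sub-cluster 3 group. That move added 307 cells to P3 sums of 140, 871 and 1899 cells that kept their other sub-clusters. It therefore could not show whether the 5 calls depend on the P3 partner.

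**Figure D5:**
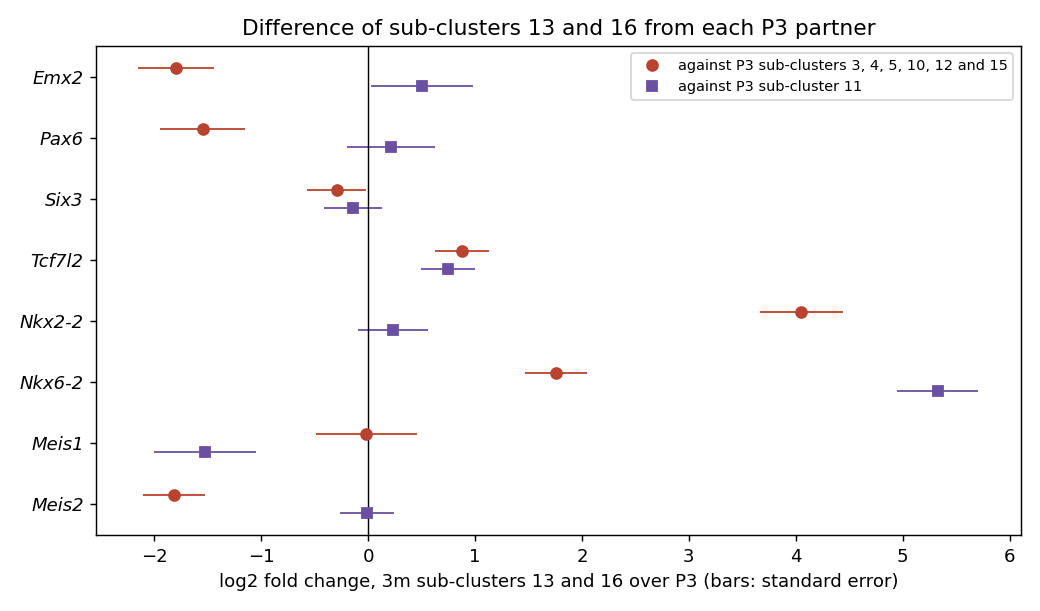
Log2 difference (points, with standard errors) of 3m sub-clusters 13 and 16 from P3 sub-clusters 3, 4, 5, 10, 12 and 15 (circles) and from P3 sub-cluster 11 (squares). *Emx2*, *Pax6*, *Meis2* and *Nkx2-2* lie near 0 against sub-cluster 11, whereas *Nkx6-2* lies farther from 0, at 5.33.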

How the data were processed

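Cells from 3 P3 and 3 3m preparations were analysed from the count matrix that the authors deposited, which holds raw UMI counts of 32285 genes for 16690 barcodes, with the authors' clusters and sub-clusters for each barcode. The submitters' processing notes name Cell Ranger (version not given there), Seurat 3.1.1 and build mm10. Library totals ran from 32193875 to 37795021 UMIs at P3 and from 5471573 to 10522151 at 3m. Cells with more than 500 genes and less than 10% mitochondrial UMIs were kept, as in the study (14373 cells), and doublets were not removed. No per-sample column was left unused (0).

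Sums of UMIs over the cells of each library were compared by edgeR 4.0.16 (quasi-likelihood test, TMM scaling, filterByExpr, Benjamini-Hochberg adjustment over all genes tested) in R 4.3.3, with limma 3.58.1. Standard errors were taken as the fold change divided by the square root of F. The interaction had the library as a block. Cycling sub-clusters 6 and 8 entered the comparison of all astroglial cells but neither group. Ratios of low counts used exact conditional binomial intervals, and 0 counts a floor of 3 UMIs. Levels, shares and figures were made in Python 3.11.15. Named factors were those with a mean of 20 CPM or more in a population, plus those called. The members and the list of 58 further patterning genes were chosen with earlier results of these data known. The script was tested on simulated data.

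Alternatives were RLE scaling or none beyond totals, no low-count filter, DESeq2 1.42.0, the replicate number as a block, leaving out each library, stricter cells (over 1000 genes, under 5% mitochondrial UMIs), no cells in the top 5% of UMIs, thinned sums, and other sets of sub-clusters. The sets without sub-clusters 10, 11, or 12 and 16, and those that moved sub-cluster 11, were chosen after seeing the data. The sources used here do not state whether counting used strand, so *Emx2* and *Zic1* could hold reads of an overlapping antisense or neighbouring gene. Distances between gene starts come from GENCODE M21 (GRCm38). Of the 37 factors, 27 matched the promoter table of RefSeq. Values of some further genes are not reported here.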

Additional observations from a re-analysis of the deposited data

Results flagged for a closer look

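The age effect of 5 patterning factors differed between the sub-cluster 3 group and the sub-cluster 0 group by the interaction test. The difference (log2) was 5.40 for *Nkx2-2*, -2.63 for *Pax6*, -2.18 for *Emx2*, -1.42 for *Nkx6-2* and -1.28 for *Meis2*. The groups share their 6 libraries, and 3m library 1 gave only 17 cells to the sub-cluster 3 group. The age effect in that group depended on its P3 partner. Against sub-cluster 11 it was 0.24 for *Nkx2-2*, 0.22 for *Pax6*, 0.50 for *Emx2* and -0.01 for *Meis2*. Whether the P3 and 3m cells of the group share a region was not tested, so region and age cannot be told apart.

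Oligodendrocyte, pericyte, endothelial and microglial clusters entered no comparison. In them, 5 factors averaged above their highest mean in the astroglial sub-clusters, the progenitor clusters, OPC_18 and NEU_22. The last 2 clusters also entered no comparison, and factors higher there than in astroglia are given above. *Nkx6-2* averaged 725 CPM in oligodendrocyte cluster ODC_10. *Zic1* and *Zic4*, which overlap, averaged 295 and 63.5 CPM in the pericyte cluster PER_6. *Zic2* and *Zic5*, which are close neighbours, averaged 134 and 32.3 CPM in the endothelial cluster END_17. Groups of 3 libraries were too small for a check of single outlying libraries.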

How the results depend on the processing

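The counts of called factors were 8 over all astroglial cells, 9 in the sub-cluster 0 group, 6 in the sub-cluster 3 group and 5 for the interaction. In the stricter cells they were 2, 3, 3 and 4, and in sums thinned to the smallest they were 3, 5, 1 and 1, with only 10, 10, 1 and 1 factors left to test. Leaving out a library gave 5 to 7, 5 to 8, 2 to 6 and 4 to 6. Without P3 library 1, 2 or 3, 12 to 14 factors could be tested in the first 2 comparisons, against 22 and 18. Without 3m library 2, 3, 7, 2 and 4 of the calls were kept. With the main trajectory alone the sub-cluster 0 group had 5, and without a filter on low counts the sub-cluster 3 group had 11 among 30 tested. With sub-cluster 11 as the P3 partner that group had 3, and *Pax6* and *Emx2* turned from -1.55 and -1.79 to 0.22 and 0.50. DESeq2 called 7, 9, 6 and 5.

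Over all genes, the 2449 calls of the sub-cluster 3 group and the 1665 of the interaction became 799 and 746 in the stricter cells. Thinned sums gave 2697, 2323, 392 and 253 calls against 4344, 3657, 2449 and 1665. Without 3m library 2 the sub-cluster 3 group had 1541 calls, and with sub-cluster 11 as partner 1359. Without scaling beyond library totals the share of calls that were higher at 3m went from 49.3% to 38.6%, from 51.9% to 40.1% and from 52.5% to 30.9% in the first 3 comparisons, with medians over all genes of -0.24, -0.23 and -0.41. No called factor changed sign under these scalings. The called factors had 434 values under alternatives in which they could be tested, of which 391 kept their direction and call, 41 lost the call by p or fold and 2 changed sign. Factors left untested by an alternative are not among these. The causes were not tested.

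With the replicate number as a block, 7, 10 and 6 factors were called in the first 3 comparisons, and *Meis1* fell to -0.98 over all astroglial cells. The numbers were taken as shared names, since not every same-numbered pair correlated over 0.1. Their deviations correlated at 0.206, 0.099 and 0.039 over all astroglial cells, 0.261, 0.106 and 0.080 in the sub-cluster 0 group and 0.006, 0.027 and 0.009 in the sub-cluster 3 group. P3 library 3 was closer to 3m library 2 than to its own number over all astroglial cells (0.142) and in the sub-cluster 0 group (0.094), and in the sub-cluster 3 group P3 library 1 was closer to 3m library 3 (0.00995). The interaction already had the library as its block.

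Depth limited the 3m sums. In the sub-cluster 3 group the 3m libraries held 61425, 874382 and 230378 UMIs, so factors below about 20 CPM rested on few UMIs there.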
